A study of Mus musculus with 56 samples.

Results

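The CXC chemokines of these mouse brain macrophage libraries were followed as 8 genes chosen by symbol, with earlier results of these data known. They are the ligands Cxcl1, Cxcl2, Cxcl9, Cxcl10, Cxcl14, Cxcl16 and Pf4 and the receptor Cxcr4. All 8 are rows of the count table of 23420 genes, of the single-cell matrix of 27998 genes and of the FPKM tables of 23356 gene names. The cell matrix lists 22 CXC ligand and receptor genes in all, these 8 included.

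CXC chemokines are small secreted proteins, named for the residue that separates their first cysteines, that bind receptors coupled to Gi proteins and direct the movement of leukocytes. Cxcl1 and Cxcl2 bind Cxcr2 and draw neutrophils, and their genes are classic targets of NF-kB. Cxcl9 and Cxcl10 bind Cxcr3 on activated T and NK cells and are induced by interferons. Cxcl16 is made as a membrane protein that Adam10 and Adam17 shed, and its receptor is Cxcr6. Pf4 is known from platelet granules and, in the brain, from macrophages at its borders, and Cxcr4 is the receptor of Cxcl12.

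The study profiled microglia, the resident macrophages of the brain, in 56 libraries of 4 preparations. In the culture preparation, microglia from wild-type B6 pups of postnatal day 5 to 8 were isolated with CD11b beads, kept 7 to 9 days in vitro with M-CSF and serum, and left in medium (7 libraries) or treated for 3 h with 200 ng/ml IL-33 (7 libraries). IL-33 is a cytokine of the IL-1 family whose receptor is ST2, the product of Il1rl1. The protocol also describes a 1 h pretreatment with the histone demethylase inhibitor GSK-J4 at 0.2 µM and does not say which cultures received it. Tau-GFP plus (8 libraries) and negative (8 libraries) microglia were sorted from the cortex of B6/129 carriers of Mapttm1(EGFP)Klt, which places EGFP at the neuronal Mapt gene, labelled postnatal day 10. The fractions share the allele and differ by the GFP signal of the sorted cells. Single cells were sorted from the cortex of B6 mice by a CD45int CD11bint gate and sequenced as 10x 3′ libraries, from wild-type mice at P9 (2 libraries) and P28 (2 libraries) and from ST2 Het (2 libraries) and ST2 KO (2 libraries) mice at P9. TMRM high (10 libraries) and low (8 libraries) microglia were sorted from P9 cortex, strain labelled B6/C57, by a dye that accumulates in mitochondria according to membrane potential. The labels do not say whether libraries of a group came from separate animals or cultures, so p-values measure the spread between these libraries, which may be technical.

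The members lie on 4 chromosomes of GRCm38 (mm10), each a protein-coding gene in the GENCODE M21 annotation. Pf4 (chr5:90772435-90773383, plus strand), Cxcl1 (chr5:90891241-90893115, plus) and Cxcl2 (chr5:90903871-90905938, plus) lie close together, with 10.8 kb between Cxcl1 and Cxcl2 and 118 kb between Pf4 and Cxcl1. Cxcl9 (chr5:92321347-92328079, minus) and Cxcl10 (chr5:92346638-92348889, minus) form a second group 1415 kb further on, 18.6 kb apart. Cxcl16 (chr11:70453983-70459984, minus), Cxcl14 (chr13:56288643-56296551, minus) and Cxcr4 (chr1:128588199-128592293, minus) lie elsewhere.

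Promoters are shown because Cxcl1, Cxcl2 and Cxcl10 were higher together in the TMRM comparison. Where both were tested, Cxcl2 and Cxcl10 differed in sign only in medium against Tau-GFP negative. There the filter on low counts helped fix both directions. A RefSeq entry (GRCm38.p6) was found for 7 of the 8 members, all but Cxcl16, and the 250 bases before each start were searched on both strands for the NF-kB consensus and for the interferon-stimulated response element (GAAA, any 2 bases, GAAA), merging overlapping matches. Capitals mark the matches, and each sequence reads 5′ to 3′ on the gene's own strand.
Cxcl1, chr5:90890995-90891244, plus strand: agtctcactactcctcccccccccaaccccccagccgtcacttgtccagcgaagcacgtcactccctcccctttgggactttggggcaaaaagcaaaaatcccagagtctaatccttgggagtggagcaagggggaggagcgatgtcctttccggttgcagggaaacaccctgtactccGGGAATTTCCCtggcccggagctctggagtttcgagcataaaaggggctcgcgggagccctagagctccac
Cxcl2, chr5:90903649-90903898, plus strand: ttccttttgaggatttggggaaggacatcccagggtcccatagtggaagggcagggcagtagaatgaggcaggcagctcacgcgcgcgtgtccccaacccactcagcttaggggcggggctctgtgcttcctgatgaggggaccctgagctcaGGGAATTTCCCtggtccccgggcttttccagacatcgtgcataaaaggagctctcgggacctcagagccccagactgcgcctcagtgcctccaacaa
Cxcl10, chr5:92348890-92349139, minus strand: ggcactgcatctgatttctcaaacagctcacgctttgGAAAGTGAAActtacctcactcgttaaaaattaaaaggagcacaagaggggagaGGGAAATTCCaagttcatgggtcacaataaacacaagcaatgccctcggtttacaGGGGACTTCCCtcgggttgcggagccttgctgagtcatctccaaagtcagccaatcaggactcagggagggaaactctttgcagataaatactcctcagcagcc
Pf4, chr5:90772185-90772434, plus strand: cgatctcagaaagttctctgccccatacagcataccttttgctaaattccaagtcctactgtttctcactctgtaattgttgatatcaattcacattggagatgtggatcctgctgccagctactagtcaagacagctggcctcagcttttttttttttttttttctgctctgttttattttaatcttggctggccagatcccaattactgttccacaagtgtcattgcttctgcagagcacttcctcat
Cxcl1 and Cxcl2 each held 1 NF-kB match, the same letters in both, ending 61 and 87 bases before the start. Cxcl10 held 2 NF-kB matches, ending 150 and 94 bases before the start, and 1 response element ending 204 bases before it. Pf4, Cxcl9 and Cxcr4 held neither, and Cxcl14 (chr13:56296552-56296801) held 1 response element. Among 27025 genes with a promoter entry, 8.23% held the NF-kB consensus and 3.46% the response element in this window. A match describes letters and was not tested as a binding site.

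Totals per count library ran from 7.71e+06 to 1.18e+07 expected counts. The cell matrix held 15507 barcodes, of which 15335 were kept, with a median of 2244 to 5935.5 UMIs per cell across the 8 libraries and 638 to 2899 microglia-like cells in each. Pairs of single-cell libraries shared at most 14 barcodes, and no replicates of the count libraries were alike within sampling noise. The depth of the TMRM libraries is unknown, so they were not tested for this. Library names carry one date for the wild-type single-cell libraries and another for the ST2 libraries, so each single-cell comparison below lies within one date by these names. The barcode prefixes of replicate 1 of both ST2 groups carry the word redo, which the labels do not explain. Il1rl1 UMIs in microglia-like cells did not separate the ST2 labels: there were 30 and 28 in the libraries labelled ST2 KO and 37 and 46 in those labelled ST2 Het, and whether the 3′ tag lies outside the deleted part is not given. A cell with an Xist UMI was also less frequent in the ST2 KO libraries, at 76.2% and 72.3% of microglia-like cells against 98.6% and 99.3% in ST2 Het.

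Which cells held each chemokine was read from the single-cell libraries. Clusters were formed without the CXC genes and named from marker lists. Of the kept cells, 14399 (93.9%) were microglia-like, 642 (4.19%) were border-macrophage-like, 190 lay in a cluster led by Cldn5, Itm2a and Ly6c1, 93 in a cluster led by neutrophil and monocyte genes and 11 in a T and NK cluster seen only at P28. The Cldn5-led cluster is called endothelial-led below for its leading genes only. In it 1 of 10 endothelial markers and 10 of 10 microglia markers were each found in over 10% of cells, so it was not named as a cell type. Some microglia-like clusters had Cd79b or Slc1a3, markers of other lists, among their leading genes. Microglia-like, border-macrophage-like, endothelial-led and neutrophil- and monocyte-led cells had median depths of 3501, 3584, 2107 and 3957 UMIs. The shares that follow pool libraries and have exact 95% intervals by the Clopper-Pearson method that reflect counting error alone. They are descriptions with no test, since cells are not replicates.

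Pf4 marked the border macrophages. Of 27386 Pf4 UMIs, 24664 lay in border-macrophage-like cells, where 633 of 642 cells (98.6%, interval 97.4 to 99.4%) had a UMI and the summed level was 10009 CPM (counts scaled to the summed UMIs of the class). The share was 97.0% with every cell thinned to 1000 UMIs. In microglia-like cells 10.6% (interval 10.1 to 11.1%) had a Pf4 UMI, and the level was 41.4 CPM. The endothelial-led cluster had a Pf4 UMI in 10.0% of its cells (interval 6.13 to 15.2%) and 84.0 CPM, and thinned shares were 2.88% and 4.92%. This cluster carries microglia markers and drew 105 of its 190 cells from P9 and 6 from P28, so it gives no clean background. How much of the microglia-like share is free RNA was not tested.

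Cxcl2 and Cxcl1, the neutrophil-drawing ligands, were also held mostly by cells other than microglia. Of 1777 Cxcl2 UMIs, 1488 lay in 144 border-macrophage-like cells (22.4% of them, interval 19.3 to 25.9%, 604 CPM; 16.6% when thinned). A further 151 lay in 11 neutrophil- and monocyte-led cells, and microglia-like cells held 137 UMIs in 110 cells (0.764%, 2.39 CPM). Of 112 Cxcl1 UMIs, 84 lay in 18 border-macrophage-like cells, 76 of these UMIs at P9, with 29 in 1 cell, and 24 lay in 2 neutrophil- and monocyte-led cells. Microglia-like cells held 4 Cxcl1 UMIs. Cxcl1 is therefore described here from few cells.

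The UMIs of Cxcl10 and Cxcl16 lay mainly in microglia-like cells, which were 14399 of the 15335 kept cells, with Cxcl10 in few of them. Per cell other classes led, the T and NK cluster left aside. With cells thinned to 1000 UMIs, the share with a UMI was highest in border-macrophage-like cells for Cxcl10. For Cxcl16 it was highest in neutrophil- and monocyte-led cells. Microglia-like cells held 712 of 811 Cxcl10 UMIs, in 188 cells (1.31%), of which 24 had 5 or more UMIs and 1 had 116. Border-macrophage-like cells held 71 UMIs in 31 cells (4.83%, 28.8 CPM), and 27 UMIs lay in 1 neutrophil- and monocyte-led cell. Among microglia-like clusters, the summed Cxcl10 level was 405 CPM in the cluster led by interferon response genes (238 UMIs in 11 of 179 cells). Of these UMIs, 1 cell of each ST2 Het library held 116 and 108, so this level rests mostly on those cells and was not ranked. The summed level was 38.5 CPM in the cluster led by immediate-early genes (75 of 1147 cells) and 14.5 CPM in clusters led by cell-cycle genes (73 of 2386 cells). In the other microglia-like clusters, 26 UMIs lay in 18 of 9833 cells (0.775 CPM). At 1000 UMIs per cell, 22 of 70 Cxcl10-positive microglia-like cells (31.4%) also had a UMI of Ccl4, a CC chemokine, against 6.11% of the others. Ccl3 was found in 28.6% against 6.34%, and the interferon response gene Ifit3 in 2.86% (2 cells) against 0.434%.

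Cxcl16 was spread widely. Microglia-like cells held 1933 of 2111 UMIs, and 11.3% of them (interval 10.8 to 11.8%) had one, at 33.8 CPM. The share was 13.1% in border-macrophage-like cells, 17.2% in neutrophil- and monocyte-led cells and 5.26% (interval 2.55 to 9.47%) in endothelial-led cells. After thinning, microglia-like cells stood at 3.88% and endothelial-led cells at 2.73%. A microglia-like cluster led by Cst7 and Ccl4, with 330 of its 338 cells from P28, reached 168 CPM, and 34.9% of its cells (interval 29.8 to 40.3%, 13.9% thinned) had a Cxcl16 UMI.

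Cxcr4 was sparse and Cxcl9 and Cxcl14 almost absent from the matrix. Neutrophil- and monocyte-led cells held 21 of 38 Cxcr4 UMIs, in 15 of 93 cells (16.1%, interval 9.32 to 25.2%). Microglia-like cells held 15 (0.104% of cells). Cxcl9 and Cxcl14 had 2 UMIs each in 15335 cells. Of CXC genes outside the 8, Cxcl12, the Cxcr4 ligand, had 83 UMIs, 49 of them in endothelial-led cells. Cxcr3, the receptor for Cxcl9 and Cxcl10, had 247 UMIs and reached 39.0 CPM in border-macrophage-like cells against 2.60 CPM in microglia-like cells. Cxcr2, the receptor for Cxcl1 and Cxcl2, had 251 UMIs, 236 of them in microglia-like cells.

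**Figure D1:**
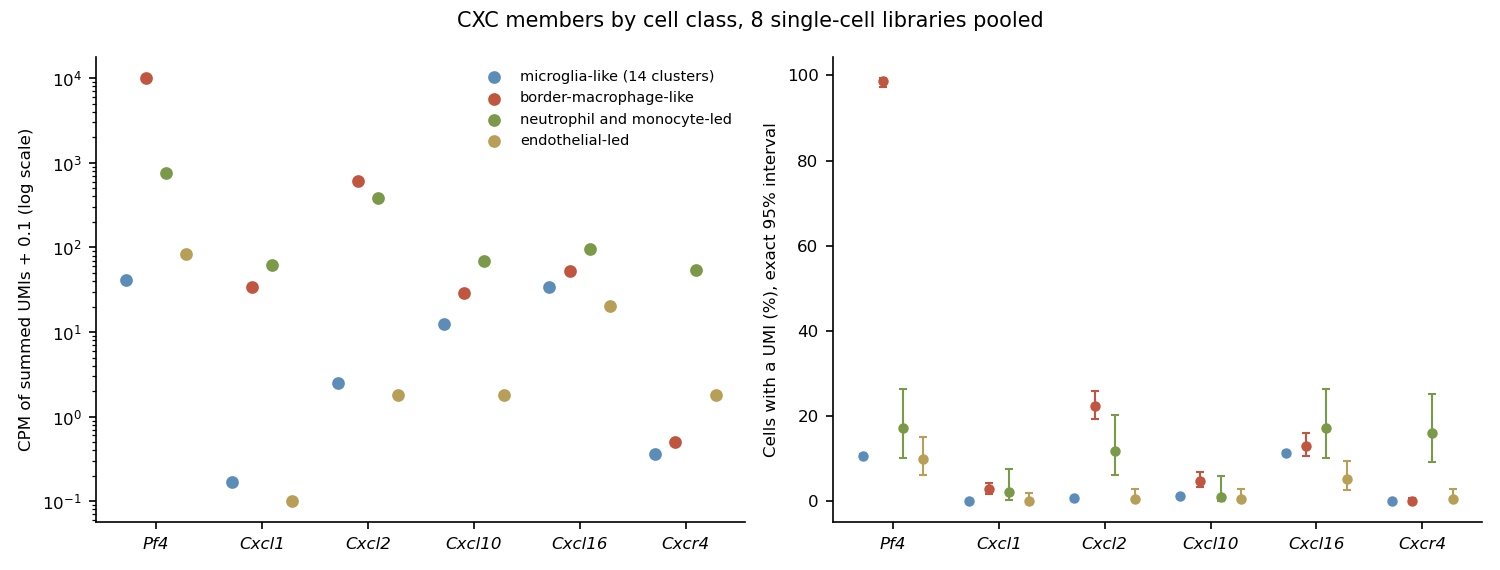
Members in 4 cell classes of the 8 single-cell libraries, pooled. Left, CPM of the class's summed UMIs plus 0.1, log scale; right, percent of cells with at least 1 UMI, with exact 95% intervals. Pf4 reached 98.6% of border-macrophage-like cells and Cxcl2 22.4%, against 10.6% and 0.764% of microglia-like cells.

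In cultured microglia, IL-33 for 3 h was set against medium to ask how the cytokine changes these cells. Cxcl2 and Cxcl16 rose, Cxcl14 fell, and Pf4 and Cxcr4 did not pass the test. Calls are edgeR's quasi-likelihood test with Benjamini-Hochberg adjusted p under 0.05 over all 10815 genes tested, and levels are CPM, counts scaled to the library's total after TMM, which are not set against each other between genes because they are not per length. So 2 members rose and 1 fell of 5 tested, where 7.76% of all genes were called, 4.22% higher and 3.54% lower. The median log2 change was -0.21 for the 5 members and -0.01 for all genes.

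Cxcl2 was read at 6.53 (lowest), 8.44 (median) and 13.4 (highest) CPM in medium and at 20.8, 36.4 and 43.5 CPM with IL-33. Every IL-33 library lay above every medium library. The log2 change was 1.86 ± 0.17 (SE, n = 7 and 7; edgeR adjusted p = 3.1e-07). Cxcl16 was read at 569, 593 and 638 CPM in medium and at 722, 793 and 866 CPM with IL-33, again without overlap. It rose by 0.40 ± 0.04 on the log2 scale (edgeR adjusted p = 1.8e-06), and Adam17, which sheds it, rose from 376 to 463 CPM (log2 change 0.30). Cxcl14, a chemokine known from epithelia, was at 78.5, 82.2 and 88.8 CPM in medium and at 60.0, 73.9 and 78.5 CPM with IL-33. All 7 IL-33 libraries lay below the medium median, with the ranges meeting at the edge, and the log2 change was -0.21 ± 0.06 (edgeR adjusted p = 0.019).

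Pf4 ranged from 62.1 to 144 CPM with IL-33 and from 53.2 to 172 CPM in medium. The difference of -0.25 ± 0.20 log2 units (95% interval -0.64 to 0.14) had an edgeR adjusted p of 0.57. Cxcr4 differed by -0.31 ± 0.20 (interval -0.70 to 0.08; edgeR adjusted p = 0.45), with means of 4.29 ± 1.2 and 5.31 ± 1.3 CPM (SD, n = 7 and 7). Cxcl1, Cxcl10 and Cxcl9 were too low to be tested. Cxcl1 gave 78 counts over the 7 IL-33 libraries, 0 to 3.16 CPM each, and 12 over the 7 medium libraries, 0 to 0.749 CPM. Cxcl10 gave 40 and 17 counts and Cxcl9 gave 2 and 1.

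Genes that regulate or accompany these ligands were counted from lists. Of the NF-kB and interferon regulators, 8 of 18 rose and none fell in this comparison, led by Nfkbiz (log2 change 0.85), Relb (0.74), Nfkb2 (0.71) and Nfkbia (0.65), the last an inhibitor of NF-kB that NF-kB induces. Cxcl3, the close relative of Cxcl2, rose from 2.20 to 4.62 CPM (log2 change 1.07 ± 0.28, edgeR adjusted p = 0.019). Of 5 CC chemokines tested 4 rose (Ccl12 by 1.51, Ccl3 by 0.99, Ccl5 by 0.81 and Ccl4 by 0.65). Of 12 interferon response genes none passed the test in either direction. Among 16 genes of Cxcr4 coupling and ligand processing 4 rose and 2 fell (Rgs2, a brake on G proteins, by -0.50 and Rgs10 by -0.28). Border-macrophage markers were not called, 0 of 5 tested with 1 of 10 at 0 in every library, and summed to 1689 to 2066 CPM with IL-33 and 1492 to 2288 CPM in medium. Microglia markers fell for 4 of 9.

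The Tau-GFP comparison asks what distinguishes microglia that hold a neuronal protein. Of the 4 members tested, Cxcl2 and Pf4 were higher in the Tau-GFP plus fraction and none was lower, where 37.7% of all 12138 genes were called, 20.7% higher and 16.9% lower. The median log2 difference was 2.97 over these 4 and 0.01 over all genes. Cxcl2, at most 11 counts in any negative library, entered the test through the plus fraction, so a lower call was not open to it. In bulk libraries like these, fewer cells of a type and less RNA per cell cannot be told apart.

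Pf4 was read at 0.728, 15.1 and 34.5 CPM (lowest, median, highest) in the negative fraction and at 371, 471 and 1207 CPM in the plus fraction. No negative library came near a plus library, and the log2 difference was 5.09 ± 0.47 (SE, n = 8 and 8; edgeR adjusted p = 2.6e-07). Cxcl2 was read at 0, 0.0951 and 1.23 CPM against 2.21, 19.1 and 45.7 CPM, without overlap, a log2 difference of 6.27 ± 0.70 (edgeR adjusted p = 2.3e-06). Cxcl1 was too low over all libraries to be tested. It had 0 counts in all 8 negative libraries and 2 to 140 counts in each plus library, 312 in all, at least 106-fold higher when 3 counts over the whole negative group are taken as its floor.

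Cxcl10 was at 2.50, 3.55 and 11.9 CPM in the plus fraction and at 1.14, 2.51 and 5.33 CPM in the negative fraction. The ranges overlapped, 7 of 8 plus libraries lay above the negative median, and the log2 difference of 0.85 ± 0.35 (interval 0.17 to 1.54) did not pass (edgeR adjusted p = 0.0635). DESeq2 gave an adjusted p of 0.0487. Without negative replicate 2 the edgeR adjusted p was 0.0230 and without plus replicate 2 it was 0.0444. Cxcl16 differed by 0.25 ± 0.14 (interval -0.02 to 0.51; edgeR adjusted p = 0.166), with means of 36.8 ± 5.3 and 31.0 ± 7.1 CPM (SD, n = 8 and 8). Cxcl14 reached at most 2.41 CPM, Cxcr4 gave 14 and 6 counts over the groups, and Cxcl9 gave 6 and 3 counts, a ratio of 2.03 with a counting interval of 0.434 to 12.6.

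Markers of other cells moved with this comparison. All 10 border-macrophage markers were higher in the plus fraction, summing to 3871 to 9793 CPM against 1246 to 1602 CPM, and all 10 microglia markers were lower, 22919 to 35228 against 46686 to 55462 CPM. Endothelial markers were higher for 8 of 10, mural markers for 7 of 7 and neuronal markers for 8 of 8. Platelet markers, of which 2 were tested, were not higher, at 12.8 to 16.5 against 16.1 to 29.7 CPM. The part of these cells in the Pf4 and Cxcl2 differences was not tested. In the single-cell libraries both genes lay mostly in border-macrophage-like cells. Of the remaining CXC genes, Cxcl12 (33.4 against 4.28 CPM, log2 difference 2.96 ± 0.81) and Cxcr3 (14.4 against 3.93 CPM, 1.87 ± 0.19) were higher, and Cxcr2 (-0.50) and Cxcr6 (-0.82) were lower.

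The other lists split in the plus fraction. All 5 CC chemokines tested were higher, from Ccl7 (log2 difference 4.88) and Ccl2 (3.57) to Ccl12 (0.80). Of 18 NF-kB and interferon regulators 2 were higher (Nfkbiz by 1.00 and Zfp36 by 0.87) and 6 lower (Ifngr1, Rel, Nfkb1 and Irf1 among them, by -0.58, -0.52, -0.50 and -0.38). Of 12 interferon response genes 4 were higher, Ifi204 by 1.75 and Ifitm3 by 1.72 the most. Both sheddases of Cxcl16 were lower, Adam10 by -0.44 and Adam17 by -0.43, among 8 lower and 2 higher of 16 coupling and processing genes.

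Cultured and freshly sorted microglia were set side by side within the same count table, medium against Tau-GFP negative. This comparison uses groups of both comparisons above as its arms, so the 3 share libraries. Culture, age, strain and preparation cannot be told apart in it. On one scaling of all 30 libraries, 6 members were higher in medium and 1 was lower of 7 tested, where 77.3% of 12748 genes were called, 36.2% higher and 41.1% lower. The median log2 difference was 4.70 over the members and -0.09 over all genes. Cxcl14, Cxcr4 and Cxcl2, at most 8, 3 and 11 counts in any negative library, entered the test through groups where they were higher. Cxcl10, at most 8 counts in any medium library, entered through the sorted groups. Cxcl1, at most 7 counts in any medium library, entered only through groups outside this contrast. The filter thus helped fix the direction of Cxcl14, Cxcr4, Cxcl2 and Cxcl10, so these counts and medians are descriptions.

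Cxcl14 was measured almost only in the cultures here. It ranged from 91.2 to 104 CPM in medium and from 0 to 0.778 CPM in Tau-GFP negative cells, a log2 difference of 9.16 ± 0.40 (SE, n = 7 and 8; edgeR adjusted p = 2.0e-19). Cxcl16 ranged from 670 to 754 against 17.8 to 33.0 CPM (4.70 ± 0.12, edgeR adjusted p = 6.6e-26). Cxcr4 ranged from 3.59 to 7.95 against 0 to 0.273 CPM (6.29 ± 0.51, edgeR adjusted p = 1.4e-12). None of these ranges overlapped. Cxcl2, at 7.64 to 15.9 against 0 to 1.07 CPM, and Pf4, at 62.7 to 200.4 against 0.637 to 29.97 CPM, were also higher (log2 differences 5.65 ± 0.57 and 3.35 ± 0.37).

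Cxcl10 went the other way. It was at 1.00 to 4.63 CPM in the 8 Tau-GFP negative libraries and at 0 to 0.999 CPM in the 7 medium libraries, a log2 difference of -2.95 ± 0.67 (edgeR adjusted p = 2.3e-04). Cxcl1 had 12 counts over the medium libraries and none over the negative ones, at least 4.49-fold higher with the same floor of 3 counts (edgeR adjusted p = 0.0226), with overlapping ranges. Cxcl9 was not tested. Microglia markers were lower in medium for 10 of 10, summing to 6037 to 6564 against 40631 to 48257 CPM. Border-macrophage markers, beside Pf4, were higher for 4 and lower for 6 of 10 and summed to 1757 to 2670 against 1090 to 1394 CPM. Monocyte-type markers were higher for 4 and lower for 1 of 8. They summed to 69053 to 76518 against 190 to 310 CPM, a sum that the most abundant of these genes can set. Their part in these differences was not tested.

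The lists around the members were also divided between medium and Tau-GFP negative cells. Cxcl12 was lower in medium (log2 difference -6.99) and Ppbp, a ligand related to Pf4, was higher (5.17), while the receptors Cxcr2 (-2.39) and Cxcr6 (-2.31) were lower. Endothelial markers, beside Cxcl12, were lower for 9 of 10. Of 18 NF-kB and interferon regulators 11 were higher, Relb by 2.55 and Nfkb2 by 2.28 among them, and 5 were lower. Of 12 interferon response genes 8 were higher, led by Ifitm3 (4.98), and Mx1 (-2.21) and Ifit3 (-0.84) were lower. The 6 CC chemokines were split, 3 higher and 3 lower, from Ccl5 (5.16) to Ccl12 (-5.86).

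Across the 4 bulk groups the order of levels differed by gene. For Cxcl2 it ran IL-33 (41.0 ± 9.0 CPM, SD), Tau-GFP plus (17.3 ± 12), medium (11.3 ± 3.3), Tau-GFP negative (0.222 ± 0.37), where the ranges of IL-33 and plus and of plus and medium overlapped. For Pf4 it ran Tau-GFP plus (523 ± 248), medium (156 ± 47), IL-33 (132 ± 35), Tau-GFP negative (15.3 ± 11), where medium and IL-33 overlapped. Cxcl16 stood at 925 ± 69 and 702 ± 27 CPM in the cultures and at 32.0 ± 4.7 and 27.04 ± 6.1 CPM in the Tau-GFP plus and negative fractions.

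**Figure D2:**
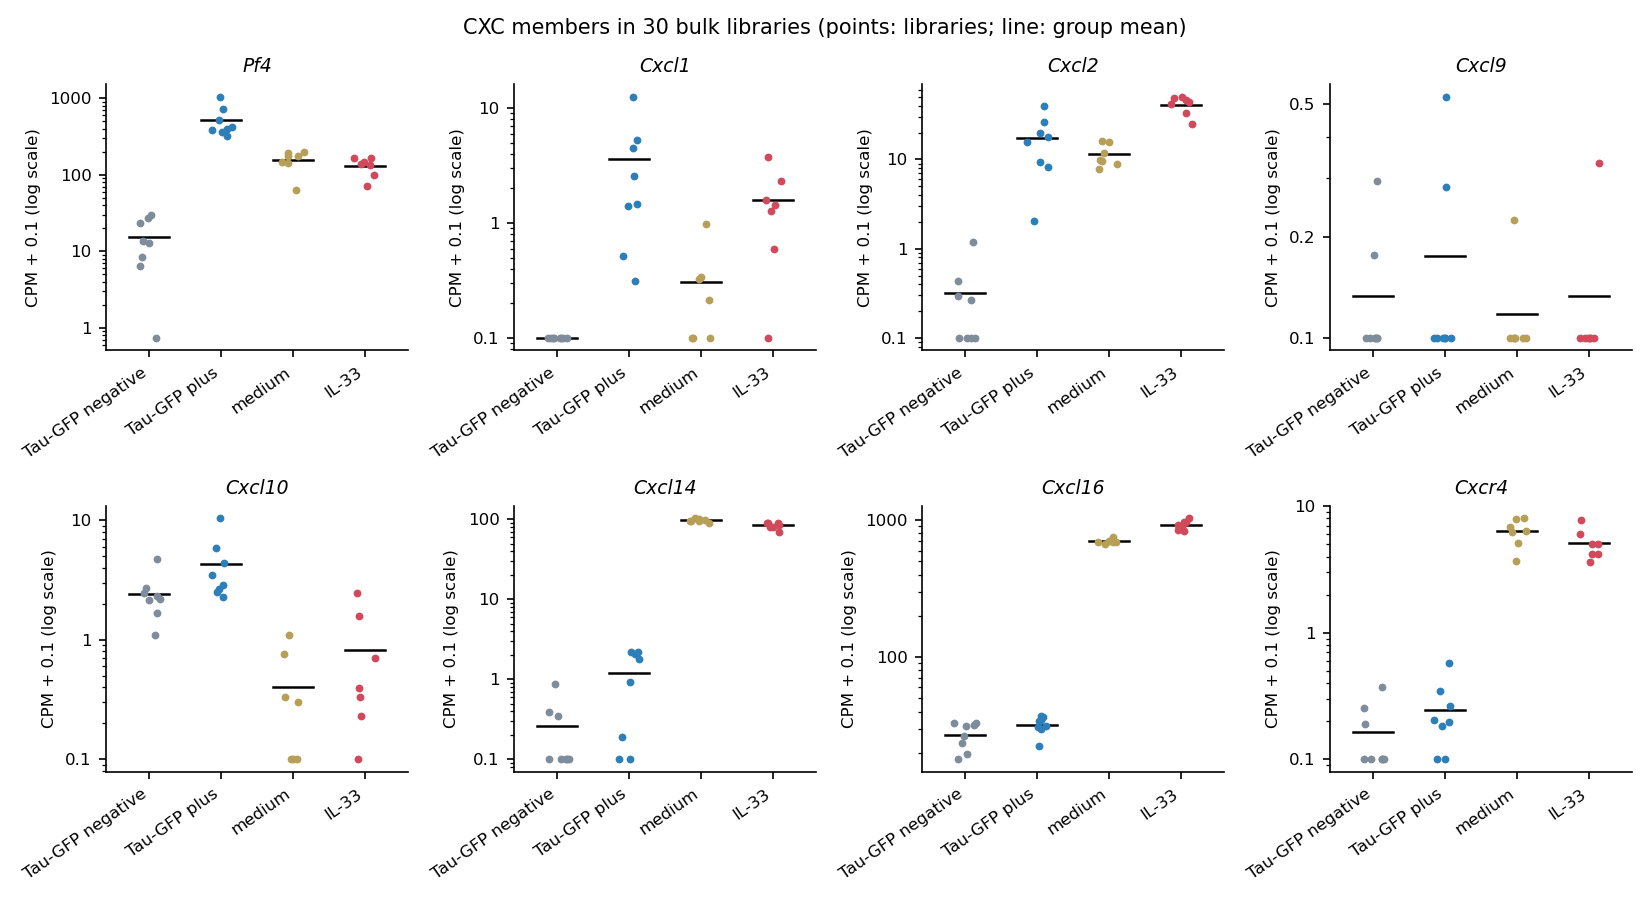
Members in the 30 bulk count libraries by group. Points are libraries, the line is the group mean, and the axis is TMM-scaled CPM plus 0.1 on a log scale. Cxcl14, Cxcl16 and Cxcr4 sit higher in both culture groups, Pf4 is highest in Tau-GFP plus, and Cxcl2 is highest with IL-33.

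Within groups, the genes most like a member from library to library were found by correlation. After each group's mean was removed, the 2 genes most like each member over the 30 libraries (Pearson r of log2(CPM + 1) among 9732 genes) were Tnf (0.74) and Nfkbid (0.71) for Cxcl2 and F13a1 (0.84) and Lyve1 (0.83) for Pf4. They were Slc39a4 (0.74) and Ppt1 (0.73) for Cxcl16 and Gla (0.76) and Ppap2b (0.75) for Cxcl14. F13a1 and Lyve1 are on the border-macrophage marker list. Spearman rank correlations were lower for all of these pairs except Cxcl14 with Gla (0.76). They were 0.57 for Cxcl2 with Tnf, 0.63 for Pf4 with F13a1 and 0.60 for Pf4 with Lyve1. These are descriptions over libraries that share preparation and depth.

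The age comparison set wild-type P28 against P9 in microglia-like cells, with UMIs summed per library. Cxcl16 rose with age and Cxcl10 and Pf4 fell, 1 higher and 2 lower of 4 members tested, where 53.6% of 11599 genes were called, 27.5% higher and 26.1% lower. The median log2 difference was -1.69 over the 4 and 0.06 over all genes.

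Cxcl16 was at 66.2 and 74.8 CPM in the P28 libraries (499 and 557 UMIs) and at 21.7 and 23.5 CPM at P9 (223 and 218 UMIs). Both P28 libraries lay above both P9 libraries, and the log2 difference was 1.64 ± 0.12 (SE, n = 2 and 2; edgeR adjusted p = 1.0e-07). The share of microglia-like cells with a Cxcl16 UMI was 14.6% and 16.1% at P28 against 7.64% and 8.39% at P9, and 6.25% and 6.55% against 1.92% and 2.89% after thinning. Outside the named states, the level was 64.2 CPM at P28 and 19.8 CPM at P9.

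Cxcl10 gave 3 and 15 UMIs at P28 (0.398 and 2.01 CPM) and 119 and 108 UMIs at P9 (11.6 CPM in each). The log2 difference was -3.25 ± 0.33 (edgeR adjusted p = 2.2e-06). Both P28 values rest on few UMIs. Leaving out P28 replicate 2 moved the difference to -4.79 and leaving out P28 replicate 1 moved it to -2.49. Summed over all kept cells it was -2.02, a sum that includes 27 UMIs of 1 neutrophil- and monocyte-led cell in P28 replicate 2. The cluster led by interferon genes held more cells at P28 (57 and 67) than at P9 (12 and 11). It had 7 Cxcl10 UMIs in 3 of 124 cells at P28 and 4 UMIs in 4 of 23 cells at P9, and without it the difference was -3.90 (an alternative chosen after seeing the data). Immediate-early-led cells held 4 Cxcl10 UMIs in 3 of 120 cells at P28 and 89 UMIs in 25 of 400 cells at P9.

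Pf4 gave 102 and 106 UMIs at P28 (13.5 and 14.2 CPM) and 799 and 837 UMIs at P9 (77.8 and 90.2 CPM), a log2 difference of -2.59 ± 0.14 (edgeR adjusted p = 6.7e-09). The share of microglia-like cells with a Pf4 UMI was 2.89% and 2.55% at P28 against 18.6% and 24.6% at P9. After thinning, the shares were 1.03% and 1.15% against 4.82% and 6.59%. At P9, 13.3% of endothelial-led cells had a Pf4 UMI (6.06% thinned). Border-macrophage-like cells numbered 48 and 45 at P28 and 245 and 223 at P9 and held 953 and 992 against 10111 and 8725 Pf4 UMIs. The part of their free RNA in the fall of Pf4 among microglia-like cells was not tested. Within the border-macrophage-like cells themselves Pf4 stood at 5237 and 6653 CPM at P28 and 11719 and 10365 CPM at P9.

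Cxcl2 gave 21 and 14 UMIs at P28 (2.79 and 1.88 CPM) and 45 and 34 at P9 (4.38 and 3.66 CPM). Both P28 libraries were lower, but the difference of -0.78 ± 0.50 (interval -1.76 to 0.20) did not pass (edgeR adjusted p = 0.20). A fit on the 4 wild-type libraries alone gave an adjusted p of 0.0354. In border-macrophage-like cells Cxcl2 stood higher at P28, at 1297 and 1529 CPM against 473 and 593 CPM, which was not tested. Cxcl1, Cxcl9, Cxcl14 and Cxcr4 had at most 5 UMIs per library in microglia-like cells and were not tested.

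Other lists moved with age as well. Of 12 interferon response genes 7 were higher at P28 and none lower, led by Ifit1 (log2 difference 2.24), Usp18 (2.02) and Ifit3 (1.81), while Cxcl10 fell. Of 18 NF-kB and interferon regulators 14 were higher, among them Irf9 (0.95) and Relb (0.95), and 2 were lower, Nfkbiz by -1.24. Ccl5 rose by 6.38 and Ccl7, Ccl12, Ccl2 and Ccl3 fell (-1.28, -1.15, -0.96 and -0.69). Of the CXC receptors tested, Ackr3, which takes up Cxcl12, was lower (-1.98 ± 0.70, edgeR adjusted p = 0.0307). Cell-cycle genes were lower at P28 for 12 of 12 (60.6 to 72.2 against 1234 to 1316 CPM), border-macrophage markers for 6 of 7, and neutrophil markers were higher for 6 of 6 (231 to 268 against 69.2 to 70.3 CPM). Without the clusters led by cell-cycle genes the Cxcl10 difference was -2.81. The part of the other marker changes was not tested.

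The ST2 comparison asks how microglia-like cells at P9 differ when the IL-33 receptor gene is deleted. Of 4 members tested 1 was lower, Cxcl10, and none was higher, where 0.595% of 11599 genes were called, 0.293% lower and 0.302% higher. The median log2 difference was -0.65 over the 4 members and -0.00 over all genes.

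Cxcl10 gave 13 and 15 UMIs in the libraries labelled ST2 KO (3.20 and 3.31 CPM) and 231 and 208 in those labelled ST2 Het (33.9 and 29.6 CPM). Both KO libraries lay below both Het libraries, and the log2 difference was -3.28 ± 0.27 (SE, n = 2 and 2; edgeR adjusted p = 6.1e-05). A few cells carried much of it. In each Het library 1 interferon-led cell held 116 or 108 UMIs, and the highest KO cells held 7 and 4. Without each library's highest cell, 115 and 100 UMIs were left in Het (16.9 and 14.6 CPM before TMM scaling) and 6 and 11 in KO (1.47 and 2.43 CPM). Without the whole interferon-led cluster the log2 difference was -2.24 (edgeR adjusted p = 0.0060), an alternative chosen after seeing the data.

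The share of microglia-like cells with a Cxcl10 UMI was 0.784% and 1.55% in KO (5 of 638 and 12 of 776 cells) and 4.24% and 2.35% in Het (53 of 1249 and 29 of 1233). Thinned, it was 0.313% and 0.129% against 1.52% and 0.813%. Immediate-early-led cells held 15 UMIs in 6 of 203 KO cells and 134 UMIs in 41 of 424 Het cells, or 10.5 against 50.6 CPM. The same cluster stood at 50.02 CPM at wild-type P9, unevenly over its libraries (25 and 64 UMIs). Cell-cycle-led cells held 12 UMIs in 10 of 395 KO cells and 59 in 25 of 609 Het cells, or 4.52 against 16.4 CPM. In both of these clusters the level pooled over libraries was lower in KO, from few positive cells, which was not tested. The interferon-led cluster had 30 Het and 2 KO cells. Among cells with an Xist UMI, a split also chosen after seeing the data, Cxcl10 stood at 3.78 and 3.51 CPM in KO and 33.8 and 30.5 CPM in Het, again before TMM scaling.

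The remaining members did not pass in the ST2 comparison. Pf4 differed by 0.08 ± 0.17 (interval -0.26 to 0.42; edgeR adjusted p = 0.92), Cxcl16 by -0.16 ± 0.17 (interval -0.49 to 0.17; edgeR adjusted p = 0.82) and Cxcl2 by -1.13 ± 0.98 (interval -3.06 to 0.79; edgeR adjusted p = 0.76). Cxcl2 rested on 5 and 0 UMIs in KO and 15 and 3 in Het, so a severalfold difference was not detectable at this depth. Of the lists, 4 of 18 NF-kB and interferon regulators were lower and none higher (Nfkbiz -1.51, Nfkbia -1.41, Tnfaip3 -0.94, Zfp36 -0.49), as were 3 of 12 interferon response genes (Ifit3 -3.90, Rsad2 -2.10, Ifitm3 -1.56) and 1 of 6 CC chemokines (Ccl4 -0.82). No coupling gene of 16 and no CXC receptor of 3 was called. Border-macrophage, neutrophil and monocyte markers were not called in this comparison. The 1 mural marker tested was higher (31.8 to 34.7 against 11.2 to 17.8 CPM), as was 1 of 12 cell-cycle genes, and their part was not tested.

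**Figure D3:**
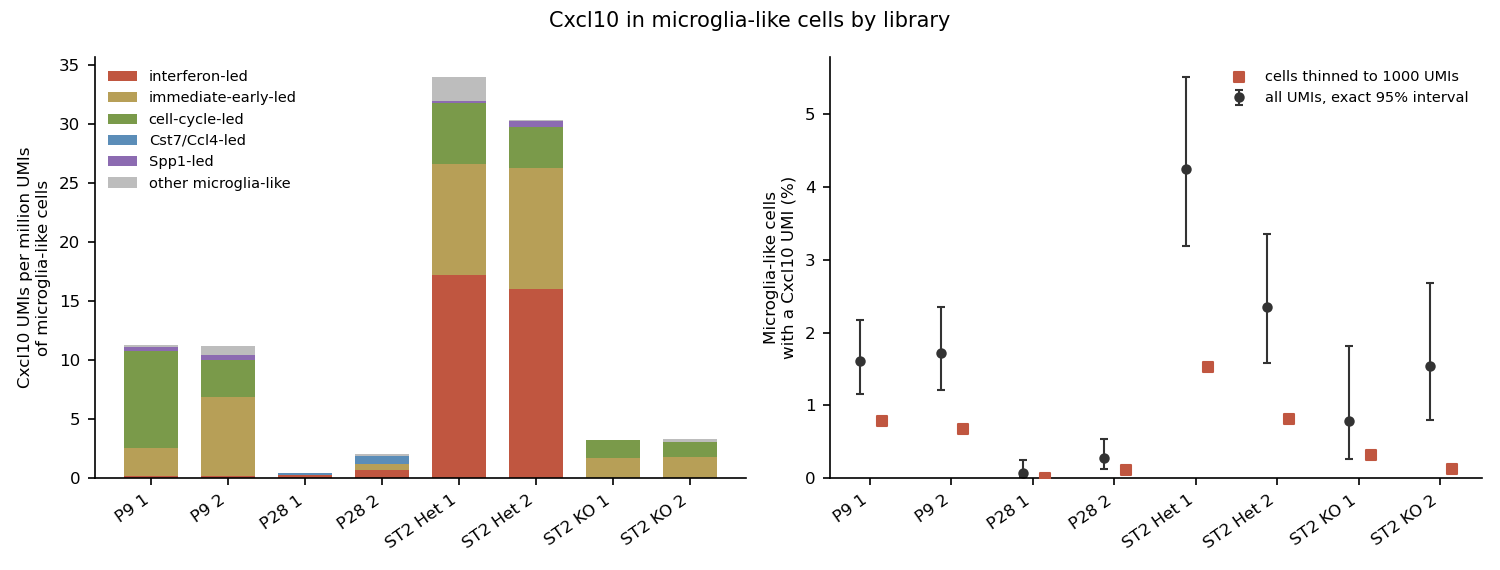
Cxcl10 in microglia-like cells of the 8 single-cell libraries. Left, Cxcl10 CPM of the summed UMIs of microglia-like cells before TMM scaling, stacked by cluster state; right, percent of cells with a UMI (points, exact 95% interval) and the same at 1000 UMIs per cell (squares). ST2 Het libraries are highest and P28 and ST2 KO libraries lowest in the left panel.

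The TMRM comparison set microglia of high against low mitochondrial dye signal. Values are FPKM, which are per length, and the test was limma on log2(FPKM + 1), a scale that understates the change of low genes. All 5 ligands that were tested were higher in TMRM high and none was lower, 5 of 6 members tested with Cxcr4, where 30.3% of 10714 genes were called, 20.4% higher and 9.84% lower. The median log2 difference was 1.76 over the 6 and 0.06 over all genes.

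The neutrophil-drawing ligands differed most. Cxcl1 was at 0.235, 2.11 and 6.53 FPKM (lowest, median, highest) in TMRM low and at 36.4, 57.9 and 68.9 FPKM in TMRM high, a log2 difference of 4.17 ± 0.29 (SE, n = 10 and 8; limma adjusted p = 1.6e-09). Cxcl2 was at 24.4, 32.8 and 56.8 FPKM against 283, 322 and 376 FPKM (3.13 ± 0.13, limma adjusted p = 1.7e-12). Neither gene's groups overlapped. Cxcl3 followed at 28.4 against 3.81 FPKM (2.68 ± 0.14).

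Cxcl10 was at 34.0, 56.1 and 68.2 FPKM in TMRM low and at 205, 354 and 431 FPKM in TMRM high. Every high library lay above every low library, with a log2 difference of 2.65 ± 0.15 (limma adjusted p = 9.4e-11). Cxcl11, another Cxcr3 ligand, was also higher, at 1.64 against 0.667 FPKM (0.66 ± 0.14). Its TMRM low mean is under the filter of 1 FPKM. It thus entered the test through TMRM high, so a lower call was not open to it. Cxcl9 reached at most 0.645 FPKM in any library and was not tested.

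Cxcl16 was at 16.7, 21.4 and 24.2 FPKM in TMRM low and at 24.9, 34.7 and 38.7 FPKM in TMRM high (0.65 ± 0.08, limma adjusted p = 4.5e-06), with the ranges just apart. Pf4 was at 18.3, 42.2 and 72.0 FPKM against 59.8, 78.0 and 116 FPKM (0.88 ± 0.20, limma adjusted p = 0.0022). Its ranges overlapped, although all 10 high libraries lay above the low median. The Cxcr4 difference was within its spread (0.05 ± 0.25, interval -0.44 to 0.54; limma adjusted p = 0.90), at 0.378 to 2.86 FPKM against 0 to 3.89 FPKM. Cxcl14, not tested, was at 0.316 to 1.13 FPKM in every TMRM high library and at 0 to 0.269 FPKM in TMRM low.

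Since FPKM are per length, members can be ordered here by level. In TMRM high, Cxcl10 (342 ± 72 FPKM, SD, n = 10) and Cxcl2 (328 ± 37) overlapped at the top. Pf4 (82.6 ± 19) and Cxcl1 (55.4 ± 11) overlapped next, and Cxcl1 overlapped Cxcl16 (33.8 ± 4.0) at its edge. In TMRM low, Cxcl10 (53.8 ± 12, n = 8), Pf4 (46.4 ± 16) and Cxcl2 (37.8 ± 12) overlapped. Cxcl16 (21.1 ± 2.2) followed, its range overlapping that of Pf4, and Cxcl1 (2.68 ± 2.3) lay lowest of the 5.

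**Figure D4:**
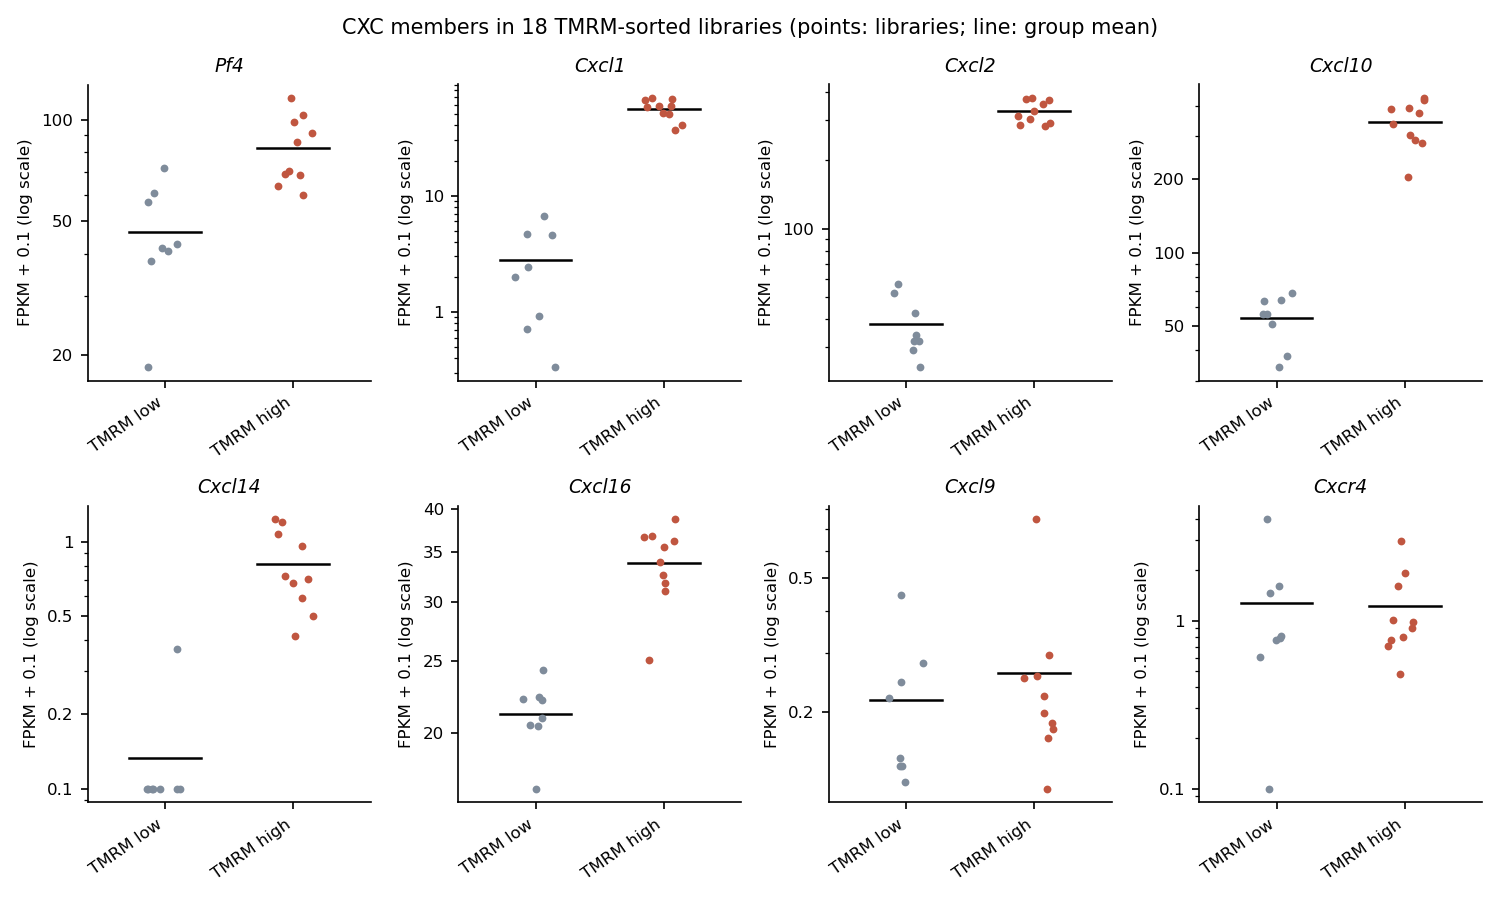
Members in the 18 TMRM libraries. Points are libraries, the line is the group mean, and the axis is FPKM plus 0.1 on a log scale. Cxcl1, Cxcl2, Cxcl10 and Cxcl16 do not overlap between high and low, Pf4 overlaps in part, and Cxcr4 overlaps throughout.

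Several lists moved with TMRM. Of 18 NF-kB and interferon regulators 6 were higher, led by Tnfaip3 (log2 difference 1.55), Nfkbiz (1.02) and Nfkbia (0.96), and 2 were lower. Of 12 interferon response genes 5 were higher, with Ifit1 (1.88) and Isg15 (1.68) first, and Irf7 (-0.47) and Mx1 (-0.45) were lower. Irf7 stands on both lists. Of 6 CC chemokines Ccl5 (4.20) and Ccl3 (0.29) were higher and Ccl12 (-0.58) was lower. Among 16 coupling and processing genes Mif, a second ligand of Cxcr4, and its receptor Cd74 were higher (1.25 and 0.63), and Rgs1 and Rgs2 were lower (-0.70 and -0.65).

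Markers of other cells also moved between the TMRM fractions. Border-macrophage markers were higher in TMRM high for 6 of 10 (201 to 274 against 91.2 to 137 FPKM summed) and neutrophil markers were lower for 7 of 8 (48.3 to 841 against 709 to 2370 FPKM). Choroid plexus markers were lower for 2 of 3, at 31.1 to 117 against 117 to 34091 FPKM. Cell-cycle genes were higher for 10 of 12 and microglia markers lower for 7 of 10 (8709 to 9905 against 9087 to 10632 FPKM). The part of these cells in the chemokine differences was not tested. Platelet markers, 1 tested, were lower, at 6.31 to 16.6 against 11.05 to 29.7 FPKM.

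**Figure D5:**
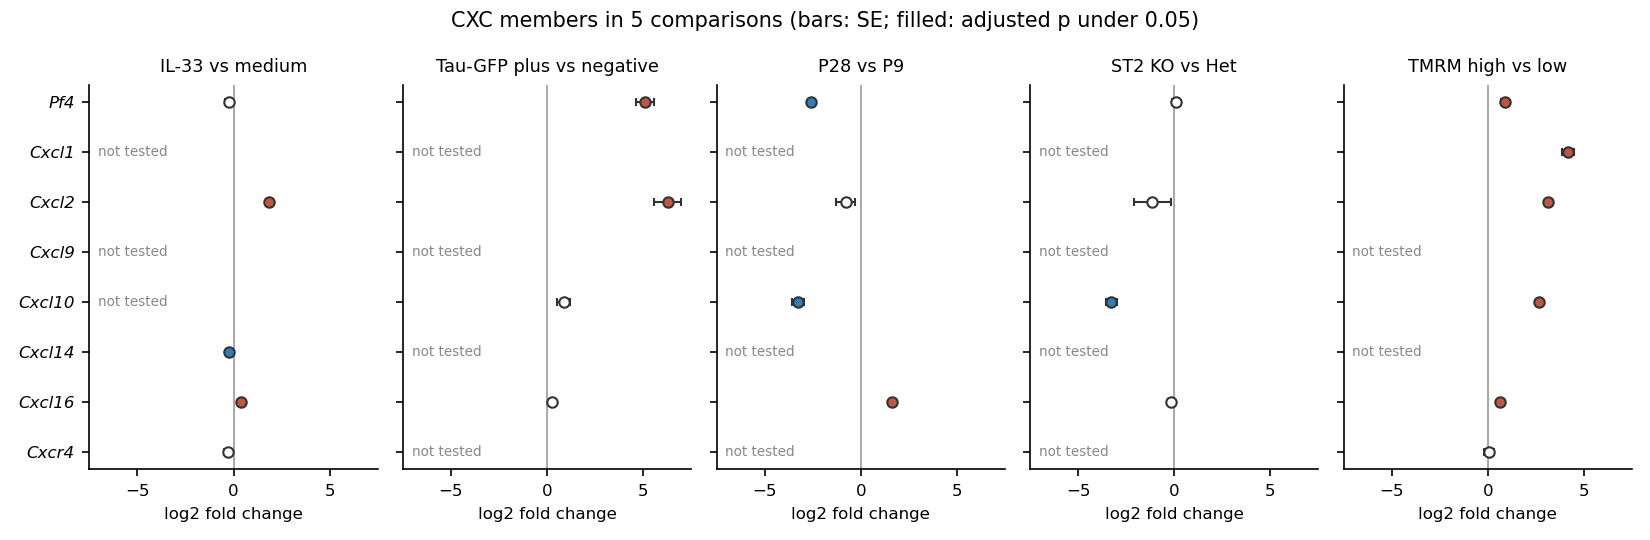
Log2 differences of the members in 5 comparisons, with SE. Filled red points are higher and filled blue points lower at an adjusted p under 0.05 (edgeR, or limma for TMRM), open points did not pass, and untested members are marked. Cxcl10 is lower in P28 and in ST2 KO and higher in TMRM high.

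Set side by side, Cxcl2, Cxcl10, Cxcl16 and Pf4 were all higher in TMRM high and differed in other comparisons. Cxcl2 rose with IL-33 (1.86) and was higher in Tau-GFP plus (6.27) and TMRM high (3.13), with -0.78 and -1.13 by age and ST2 label, neither past the test. Cxcl10 was lower at P28 (-3.25) and in ST2 KO (-3.28), higher in TMRM high (2.65) and not tested with IL-33. Cxcl16 rose with IL-33 (0.40) and was higher at P28 (1.64) and in TMRM high (0.65). Pf4 was higher in Tau-GFP plus (5.09) and TMRM high (0.88) and lower at P28 (-2.59). Not past the test were Cxcl10 (0.85) and Cxcl16 (0.25) in Tau-GFP plus, and Pf4 with IL-33 (-0.25). Cxcl16 (-0.16) and Pf4 (0.08) did not pass by ST2 label. These comparisons use different assays and scales, so their sizes are not compared.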

How the data were processed

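The authors deposited RSEM expected counts per gene for the cultured and Tau-GFP libraries, raw UMI counts for the single cells and FPKM for the TMRM libraries. Per the submitters' processing notes, Bowtie2, RSEM, Cell Ranger, TopHat2 2.0.10, Cufflinks 2.0.2 and DESeq2 are named with mm10; the sources used here give no other step or version. The 8 members and all lists were chosen with earlier results of these data known.

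Of the deposited expected counts 25.3% were not whole, and all were rounded. A further 5 columns of per-sample values were not used. edgeR 4.0.16 (R 4.3.3; TMM, filterByExpr, quasi-likelihood test) was run per bulk comparison; medium against Tau-GFP negative was fitted on all 30 libraries. Barcodes were kept when they had 500 genes or more and a mitochondrial share below 10% (scanpy 1.11.5; Python 3.11.15), then clustered without CXC genes (2000 variable genes, 30 components, 15 neighbours, Leiden resolution 1, leidenalg 0.10.2, 18 clusters); a class called X-like had at least 3 detected markers, and clusters called led by a gene are named for leading genes only. UMI counts were summed per library over microglia-like cells and tested with edgeR in one fit of 8 libraries. A doublet caller marked 36 cells, too few to have worked, and none was removed. FPKM were tested with limma 3.58.1 (trend) on log2(FPKM + 1), keeping genes whose mean reached 1 FPKM. P-values were adjusted by Benjamini-Hochberg over all genes tested, threshold 0.05; for edgeR, SE is the log2 difference divided by the square root of F. Cells were also thinned to 1000 UMIs.

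Named genes were the 8 members, up to 6 called genes with the largest change of each pathway list, and the 2 genes most like each member with a mean of at least 5 CPM. Each fit was tested on simulated data: of genes changed 2-fold, 86% were recovered for IL-33, 80.8% for Tau-GFP, 78.6% for medium against Tau-GFP negative, 76.8% for age, 74% for ST2 and 96% for TMRM. For TMRM the changed genes were drawn only from genes of higher level, so its rate is not comparable with the others. False calls were 4.02% (ST2) to 10.8% (age) of calls.

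Alternatives were DESeq2 1.42.0, other filters and pseudocounts, other sets of cells, thinning to 2000 UMIs, a replicate block and leaving out each library. The replicate block and leaving out libraries were not run for medium against Tau-GFP negative. The file of TMRM high replicate 8 ends early on chromosome X, which holds no member. Replicate 1 of P9 and of P28 is the library whose barcode prefix carries no number.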

Additional observations from a re-analysis of the deposited data

Results flagged for a closer look

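In 5 of the 32 groups with a mean of at least 1 that were examined, 1 library stood apart from the rest by Dixon's criterion at 95%, which chance meets in about 1 in 20 groups. Pf4 was at 53.2 CPM in medium replicate 2, where the next library had 122 CPM. Cxcl1 was at 14.4 CPM in Tau-GFP plus replicate 5, against 6.08 CPM in the next. Cxcl10 was at 5.33 CPM in Tau-GFP negative replicate 2 (next 3.02 CPM) and at 11.9 CPM in Tau-GFP plus replicate 7 (next 6.60 CPM). Cxcr4 was at 3.89 FPKM in TMRM low replicate 3, against 1.51 FPKM in the next. Causes were not tested.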

How the results depend on the processing

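No called member changed direction or lost its call under any alternative run. For medium against Tau-GFP negative the alternatives run were only DESeq2 and no filter on low counts. Uncalled members did change sign: leaving out 1 library gave -6.32 to 0.44 for Cxcl2, -0.50 to 0.10 for Cxcl16 and -0.21 to 0.30 for Pf4 by ST2 label and -0.089 to 0.11 for Cxcr4 by TMRM, which was -0.028 with upper quartile scaling. Members called higher in Tau-GFP plus numbered 5 with DESeq2 against 2; besides Cxcl10 there, Cxcl2 was called by age with a replicate block (adjusted p = 0.0293) and with 4 libraries alone (0.0354). Genes called in the ST2 comparison were 69, but 368 without a filter, 350 with the replicate block, 44 over all kept cells and 24 to 155 when 1 library was left out. Of the members compared, the share whose UMIs lay mostly in the same class as over all cells was 75% in ST2 KO replicate 2 alone (Cxcl2 moved to neutrophil- and monocyte-led cells), 66.7% in P28 replicate 2 alone (Cxcl1 and Cxcl10) and 83.3% at 2000 UMIs per cell (Cxcl1). The cause was not tested. Replicate numbers were not taken to pair the samples in the main tests. Same-numbered libraries correlated over 0.1 in 3 of 7 pairs for IL-33 and 1 of 8 for TMRM. For Tau-GFP they did so in 7 of 8 (median r = 0.25, own number best in 5), a likeness the main test did not use. With 2 libraries per group, the 2 same-numbered correlations are 1 value by construction, -0.03 for age and 0.18 for ST2. These values cannot show pairing. A replicate block ended no call of a member. DESeq2 moved the median of all genes in the Tau-GFP comparison to 0.13. Single-cell Cxcl1, Cxcl9, Cxcl14 and Cxcr4 are limited by few UMIs, and Cxcl10 at P28 and in ST2 KO by 3 to 15 UMIs per library.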

Other observations

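Cxcl10 in microglia-like cells can also be set side by side for ST2 Het and wild-type libraries at P9. The 2 ST2 Het libraries stood at 33.9 and 29.6 CPM and the 2 wild-type P9 libraries at 11.6 CPM each; the library names give these groups different dates, so genotype and date cannot be told apart and no test was made. Cxcl3, a close relative of Cxcl2, had 0 UMIs in 15335 cells, which allows a share of cells with a UMI of up to 0.0196%, while Cxcl3 was measured in the cultures and in both TMRM fractions. Ppbp, a ligand of the Pf4 family known from platelets, had 60 UMIs, of which 50 lay in border-macrophage-like cells.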
